A study of Mus musculus with 4 samples.

Results

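The enzymes of xenobiotic metabolism were followed through 4 microarrays of mouse intestinal tumor organoids. A probe was taken as a member when its gene symbol began with Cyp1 to Cyp4 and a letter, with Gsta, Gstk, Gstm, Gsto, Gstp or Gstt, or with Ugt, Sult or Ces. This rule gave 89 of the 23469 probes analysed, for 86 of 16443 named genes. Of these probes, 46 belonged to cytochromes P450 (Cyp), 17 to glutathione S-transferases (Gst), 11 to UDP-glycosyltransferases (Ugt), 9 to sulfotransferases (Sult) and 6 to carboxylesterases (Ces). The rule uses gene symbols only, but it was chosen with earlier results of these data known.

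The organoids came from intestinal polyps of ApcMin mice, whose germline Apc mutation all 4 groups carry, and grew in Matrigel in serum-free medium with EGF and Noggin. One array was hybridized for each group. The 5-Aza-CdR culture received 1 μM of this inhibitor of DNA methyltransferases for 24 hours and was collected at day 4, and the untreated control was set beside it at day 4. The Dnmt1 knockdown culture carried a lentiviral shRNA against Dnmt1, the methyltransferase that maintains DNA methylation, and was collected at day 9 after infection. Its control shRNA culture carried the empty lentiviral vector, and both were selected with puromycin. Each group is 1 array of 1 culture, so the differences below carry no error between replicates and were not tested. How many mice the organoids came from is not given in the sources used here.

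Lipophilic drugs, dietary compounds and pollutants are cleared in steps. Cytochromes P450 oxidize them and carboxylesterases split their ester bonds. The transferases then attach glutathione, glucuronic acid or sulfate, and ABC transporters move the products out of the cell. The small intestine is, beside the liver, a main site of this clearance, and many of the genes respond to ligand-activated factors such as Ahr or to the oxidative stress regulator Nfe2l2 (Nrf2).

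Intensities are the deposited values, the spot signal above the blank spots scaled so that each array has a median of 25. They serve to compare a probe between arrays and are not compared between probes as amounts of RNA. Log2 ratios come from the spot signals after background correction with an offset of 50 and quantile normalization, which draws the ratios of dim probes toward 0. A difference of at least 2-fold was called where the brighter array had the probe above background, set at 2 SD over the blank spots. Between 81.1% and 92.9% of all probes were above background on an array, and several probes of a gene differed in their log2 ratios by an SD of 0.21 with 5-Aza-CdR, 0.15 with Dnmt1 knockdown and 0.45 between the controls. In an organoid culture, fewer cells of a type and less RNA per cell cannot be told apart.

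The cultures carried markers of gut epithelium, though not all of them were bright. Cdh1, Vil1, Ascl2 and Cldn7 had intensities of at least 338 on each array. Krt19 was dim, with 6.71 with 5-Aza-CdR, 6.32 in the untreated control, 4.86 with Dnmt1 knockdown and 3.11 in the control shRNA culture. Axin2 had 6.86, 8.5, 6.68 and 5.52 in the same order, and Lgr5 had 203, 292, 18.6 and 15.2. Epcam had intensities of 7199 with 5-Aza-CdR, 7627 in the untreated control, 2684 with Dnmt1 knockdown and 3466 in the control shRNA culture. Ptprc, the pan-leukocyte marker, was close to background on each array, with 2.91 with 5-Aza-CdR, 3.38 in the untreated control, 4.84 with Dnmt1 knockdown and 2.41 in the control shRNA culture. Of 10 detected epithelial markers, none was called with 5-Aza-CdR or Dnmt1 knockdown, and between the controls Lgr5, the intestinal stem cell marker, was lower, with a log2 ratio of −2.42. Not all members of the immune list were as dim as Ptprc. Cd14 had 318 with 5-Aza-CdR, 169 in the untreated control, 190 with Dnmt1 knockdown and 276 in the control shRNA culture. Cd68 had 178, 194, 105 and 67.5 in the same order, and Csf1r had 51.6, 51.9, 38.3 and 31.9. The other detected members had at most 11.24. None of the detected members of the immune list was called in any comparison. Whether immune cells were present was not tested.

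Of the 89 member probes, 75 were above background on all 4 arrays, 9 on some of them and 5 on none. The 5 not above background anywhere were Cyp2a5, Cyp2d13, Cyp2j13, Cyp2r1 and Ugt2a1, named because of their values. By a stricter limit, the 95th percentile of the spots without a probe, 66 members were above background on every array and 9 on none. Bright members were mostly glutathione S-transferases. Probes with an intensity of at least 1000 numbered 7 with 5-Aza-CdR and 10 in the untreated control, of which 7 and 8 were Gst probes. In the Dnmt1 knockdown culture 9 members reached this intensity and in the control shRNA culture 10, with 7 and 8 Gst probes among them. The median Cyp probe was dim on every array, with intensities of 11.2 with 5-Aza-CdR, 10.3 in the untreated control, 12.1 with Dnmt1 knockdown and 9.79 in the control shRNA culture.

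Since the inhibitor and the knockdown act on the methylation of CpG dinucleotides, 6 promoters are shown as RefSeq gives them for GRCm38.p6, chosen with their values known: those of 3 members higher with 5-Aza-CdR and those of Ces6, Ugt1a6a and Cyp1a1. Each runs from 250 bases before to 50 bases after the first listed start, 5′ to 3′ on the strand of the gene, with each CpG in capitals. Methylation itself was not measured here. Cyp1b1 (chr17:79715012-79715311, minus strand), Gsto1 (chr19:47854723-47855022, plus strand) and Gsta2 (chr9:78347096-78347395, minus strand) were higher with 5-Aza-CdR. Ces6, now named Ces2a (chr8:104733753-104734052, plus strand), had the lowest ratio with 5-Aza-CdR. Ugt1a6a (chr1:88134559-88134858, plus strand) was lower with Dnmt1 knockdown, and Cyp1a1 (chr9:57697363-57697662, plus strand) is the classical target of Ahr.
Cyp1b1: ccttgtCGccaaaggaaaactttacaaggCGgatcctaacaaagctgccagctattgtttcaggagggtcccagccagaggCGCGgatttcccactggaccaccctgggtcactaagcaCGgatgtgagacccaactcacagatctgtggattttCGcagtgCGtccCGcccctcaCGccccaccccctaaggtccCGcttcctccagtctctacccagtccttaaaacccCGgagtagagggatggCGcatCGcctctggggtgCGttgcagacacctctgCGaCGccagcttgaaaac
Gsto1: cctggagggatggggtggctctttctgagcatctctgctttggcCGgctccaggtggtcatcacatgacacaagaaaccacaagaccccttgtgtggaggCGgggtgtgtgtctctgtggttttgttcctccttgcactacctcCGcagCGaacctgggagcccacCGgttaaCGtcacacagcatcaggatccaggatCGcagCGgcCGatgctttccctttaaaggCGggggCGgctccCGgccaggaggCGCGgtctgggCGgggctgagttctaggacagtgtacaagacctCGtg
Gsta2: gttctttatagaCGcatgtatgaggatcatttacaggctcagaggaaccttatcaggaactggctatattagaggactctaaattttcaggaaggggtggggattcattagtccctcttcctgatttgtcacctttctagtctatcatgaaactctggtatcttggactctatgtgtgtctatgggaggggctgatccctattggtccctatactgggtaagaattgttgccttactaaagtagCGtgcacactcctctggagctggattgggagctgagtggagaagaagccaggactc
Ces6: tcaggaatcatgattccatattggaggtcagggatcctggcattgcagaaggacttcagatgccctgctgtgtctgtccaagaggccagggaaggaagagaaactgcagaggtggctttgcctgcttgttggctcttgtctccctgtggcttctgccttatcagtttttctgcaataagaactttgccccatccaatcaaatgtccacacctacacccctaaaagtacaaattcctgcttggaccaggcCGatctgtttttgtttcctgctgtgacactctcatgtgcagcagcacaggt
Ugt1a6a: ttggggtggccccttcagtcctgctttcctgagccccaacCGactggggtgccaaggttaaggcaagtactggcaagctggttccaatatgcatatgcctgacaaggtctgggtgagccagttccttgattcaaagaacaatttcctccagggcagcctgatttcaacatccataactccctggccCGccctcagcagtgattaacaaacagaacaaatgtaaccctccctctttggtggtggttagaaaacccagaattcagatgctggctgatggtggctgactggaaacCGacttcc
Cyp1a1: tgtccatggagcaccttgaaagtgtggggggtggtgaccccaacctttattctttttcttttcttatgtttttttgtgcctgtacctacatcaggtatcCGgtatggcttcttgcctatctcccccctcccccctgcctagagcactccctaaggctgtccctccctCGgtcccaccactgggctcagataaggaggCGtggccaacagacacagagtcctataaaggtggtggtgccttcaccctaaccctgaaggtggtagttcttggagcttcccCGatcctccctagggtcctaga

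These windows held 16 CpG in Cyp1b1, 16 in Gsto1, 2 in Gsta2, 1 in Ces6, 3 in Ugt1a6a and 4 in Cyp1a1. A promoter was found for 73 member genes, with a median of 3 CpG, and the 27025 genes of the whole table had a median of 7. Classes differed, with medians of 12 for Gst, 3.5 for Sult, 2.5 for Cyp, 2 for Ces and 1.5 for Ugt promoters. Of the 4 genes higher with 5-Aza-CdR, Cyp1b1 and Gsto1 had 16 CpG each and Gsta2 and Cyp2b13 had 2 each. The 6 lower ones had between 0 (Cyp2c55 and Ugt2b34) and 8 (Gstt1), with 1 in Ces6, 3 in Gstm2 and 5 in Cyp4b1. The letters GCGTG, the core of the element that Ahr binds, were searched on both strands. They were found once each in the windows of Cyp1a1 at −54, Cyp1b1 at −76 (as CACGC) and Gsta2 at −7, counted from the start. Overall 15 of 73 member promoters (20.5%) held them, against 32.5% of all 27025. The letters TGACNNNGC, the core of the antioxidant response element, stood in 4 member promoters (5.48%), against 12.5% of all promoters. Both searches describe the letters only.

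With 5-Aza-CdR, members of 4 classes were called and the median ratio of the set was near 0. Of 83 members above background on either array, 4 were at least 2-fold higher, which is 4.82%, and 0.903% of all 21932 such probes were higher. Lower were 6 members, or 7.23%, and 0.552% of all probes were lower. The members had a median log2 ratio of −0.04, against −0.0046 for all probes. Members and all probes were not matched for signal, so these shares are a description. In the deposited intensities, whose all-probe median was shifted by 0.16, 7 of the 83 members were higher and 9 lower, against 5.98% and 2.06% of all probes. At a limit of 1.5-fold 5 of the 83 members were higher and 11 lower, against 2.4% and 2.23% of all probes.

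**Figure D1:**
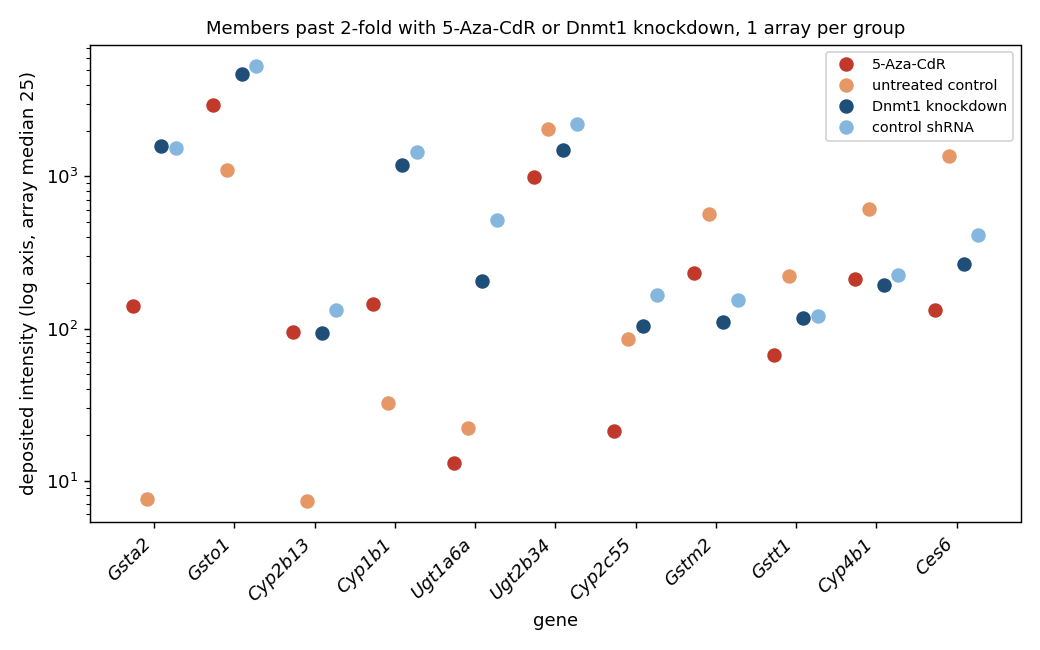
Deposited intensity (log axis, each array scaled to a median of 25) of the 11 member probes past the 2-fold limit with 5-Aza-CdR or Dnmt1 knockdown, 1 point per array. Gsta2, Gsto1, Cyp2b13 and Cyp1b1 lie higher with 5-Aza-CdR than in the untreated control, Ugt1a6a is lower with Dnmt1 knockdown than in the control shRNA culture, and Ces6 shows the widest gap below its control, with intensities of 132 and 1369.

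Higher with 5-Aza-CdR were 2 transferases and 2 cytochromes. Gsta2, an alpha-class glutathione S-transferase, had an intensity of 140.0 with 5-Aza-CdR and 7.55 in the untreated control, a log2 ratio of 1.71. Gsto1, the omega-class enzyme that also reduces dehydroascorbate, had 2938 with 5-Aza-CdR and 1101 in the untreated control, a log2 ratio of 1.34. Cyp1b1, which oxidizes polycyclic aromatic hydrocarbons and estrogens, had 144 with 5-Aza-CdR and 32.4 in the untreated control, a log2 ratio of 1.14. Each of these 3 probes was brighter in the treated culture. In the deposited intensities the log2 ratios were 4.21 for Gsta2, 1.42 for Gsto1 and 2.15 for Cyp1b1. With the local background of each spot subtracted they were 0.58, 1.33 and 0.13, so that of these 3 genes only Gsto1 was still called.

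The fourth call rested on 1 of 3 probes for Cyp2b13, a cytochrome of the Cyp2b subfamily. That probe had 94.3 with 5-Aza-CdR and 7.41 in the untreated control, a log2 ratio of 1.33 (0.23 with the local background subtracted). The other probes of the gene had 61.2 and 15.9 with 5-Aza-CdR and 58.3 and 18.6 in the untreated control, with log2 ratios of −0.07 and −0.11. The probes of this gene therefore disagreed. Probes of similar Cyp2b genes can also share signal. Cyp2b9, its neighbour on chromosome 7, had 13.2 with 5-Aza-CdR and was not above background in the untreated control, at least 1.28-fold higher.

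Among the 6 lower members, Ces6 had the lowest log2 ratio of all 21932 probes in this comparison. This carboxylesterase, which splits esters and amides, had an intensity of 132 with 5-Aza-CdR and 1369 in the untreated control, a log2 ratio of −3.05, and between −2.81 and −3.47 under the other settings. The other carboxylesterase probes had log2 ratios between −0.02 and 0.11. They were dim, with intensities of 4.6 to 13.9 with 5-Aza-CdR and 4.19 to 12.7 in the untreated control. Ces6 was therefore the single carboxylesterase called, and its neighbour Ces5 (now Ces2e) on chromosome 8 had 11.2 with 5-Aza-CdR and 6.45 in the untreated control.

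The other lower members came from 3 classes. Cyp4b1, which oxidizes fatty acids and activates some protoxins, had 211 with 5-Aza-CdR and 609 in the untreated control, a log2 ratio of −1.49. Gstt1, a theta-class transferase, had 66.9 with 5-Aza-CdR and 220 in the untreated control, a log2 ratio of −1.37. Gstm2, of the mu class, had 230.1 with 5-Aza-CdR and 569 in the untreated control, a log2 ratio of −1.31. Cyp4b1 and Gstt1 were called under each of the 6 ways of correcting and scaling the signals, while Gstm2 fell short with median scaling, at −0.92. Cyp2c55, a cytochrome of arachidonic acid metabolism, had 21.3 with 5-Aza-CdR and 85.7 in the untreated control, a log2 ratio of −1.06. Ugt2b34, a glucuronosyltransferase, had 987 with 5-Aza-CdR and 2050 in the untreated control, a log2 ratio of −1.02. Cyp2c55 depended on the setting, at −2.01 in the deposited intensities, −2.13 with plain subtraction of the blank mean and −0.70 with the local background subtracted. Ugt2b34 lay close to the limit, at −0.94 with the local background subtracted and −0.72 with median scaling.

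By class, the median log2 ratios with 5-Aza-CdR were −0.02 for 42 Cyp probes, −0.08 for 17 Gst, −0.10 for 10 Ugt, −0.05 for 8 Sult and −0.01 for 6 Ces, with the sign of Cyp and Ces turned in the deposited intensities (0.06 and 0.13), that of Gst with median scaling (0.15) and that of Ces with the local background subtracted (0.01). The Ugt median was −0.59 in the deposited intensities and −0.78 with plain subtraction. Sult2b1, which sulfates cholesterol, was the Sult probe farthest from 0, with 35.2 with 5-Aza-CdR and 80.8 in the untreated control, a log2 ratio of −0.74 that was not called. It was called in the deposited intensities, at −1.20, as it was with an offset of 16 and with plain subtraction. Gstp1, the pi-class enzyme whose promoter is often methylated in human prostate cancer, had 2744 with 5-Aza-CdR and 5416 in the untreated control. Its log2 ratio of −0.89 did not pass the limit, and its neighbour Gstp2 had 2303 with 5-Aza-CdR and 2292 in the untreated control, a log2 ratio of −0.01.

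**Figure D2:**
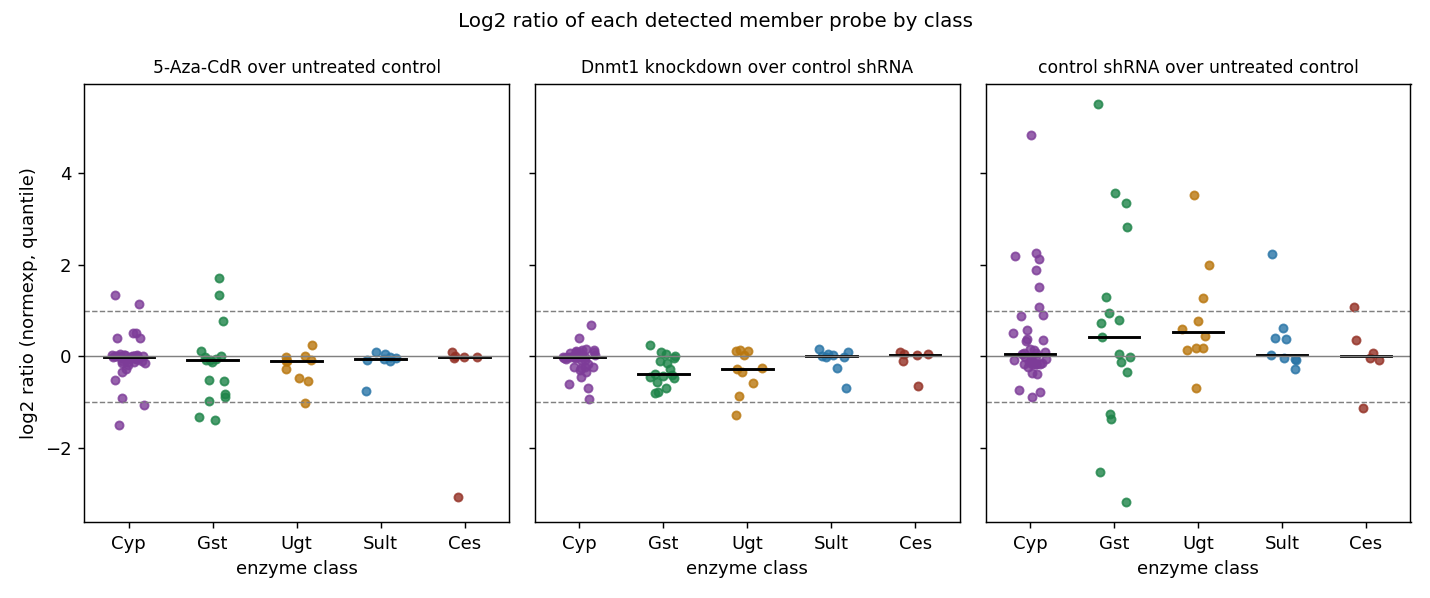
Log2 ratio of each member probe above background on either array, by enzyme class (points) with the class median (bar), in each of the 3 comparisons; dashed lines mark 2-fold. The Gst points spread most between the controls, with values between −3.18 and 5.51, and lie mostly below 0 with Dnmt1 knockdown, with a median of −0.39.

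With Dnmt1 knockdown, 1 member passed the limit. None of 80 members above background was at least 2-fold higher, while 0.358% of all 20106 probes were. The 1 lower member made up 1.25% of the members, and 0.129% of all probes were lower. It was Ugt1a6a, which attaches glucuronic acid to simple phenols, with an intensity of 206 with Dnmt1 knockdown and 519 in the control shRNA culture, a log2 ratio of −1.27. With the local background subtracted the ratio was 0.12, so its direction depended on the background used. The probe may not separate the transcripts of the Ugt1a locus, which share their last exons.

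Smaller differences with Dnmt1 knockdown leaned downward in the glutathione S-transferases. Of 17 Gst probes, 3 had a log2 ratio above 0, against 10182 of all 20106 probes, which were not matched for signal. The Gst median was −0.39 (between −0.31 and −0.41 under the other settings). The medians of the other classes were −0.01 for Cyp, −0.26 for Ugt, 0.01 for Sult and 0.04 for Ces, and they turned sign in the deposited intensities for Cyp (0.30) and with the local background subtracted for Cyp (0.01), Ugt (0.01) and Ces (−0.02). In the deposited intensities the median over all probes was shifted by 0.20 in this comparison. There 3 of 80 members were higher and 2 lower past 2-fold, against 6.88% and 0.811% of all probes. At a limit of 1.5-fold, 10 members were lower, or 12.5%, and 0.756% of all probes were lower. They were Ces6, Cyp2c55, Cyp2f2, Cyp2s1, Gstm1, Gstm3, Gstm5, Sult1c2, Ugt1a6a and Ugt2b5. The 1 higher member at this limit was Cyp1a1, and 1.14% of all probes were higher.

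Cyp1a1 and Cyp1b1, both targets of Ahr, moved unequally. Cyp1a1 had 834 with Dnmt1 knockdown and 503 in the control shRNA culture, a log2 ratio of 0.70, and 84.4 with 5-Aza-CdR and 124 in the untreated control, a log2 ratio of −0.51. Cyp1b1 had 1195 with Dnmt1 knockdown and 1455 in the control shRNA culture, a log2 ratio of −0.34 that was 1.29 with the local background subtracted. Where one of these genes was higher than its control in the main setting, the other was lower, in both comparisons. Ahr itself, named here as their regulator, had 165 with Dnmt1 knockdown and 307 in the control shRNA culture, a log2 ratio of −0.84, and 505 with 5-Aza-CdR and 221 in the untreated control, a log2 ratio of 0.91. Neither difference was called.

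The 6 Gstm genes with a member probe lie in a cluster on chromosome 3 (3:107895854-108045179, GRCm38.p6). With Dnmt1 knockdown all 6 had log2 ratios below 0, with a median of −0.62, and with the local background subtracted 5 of them did. Gstm1, a mu-class enzyme, had 1212 with Dnmt1 knockdown and 2030 in the control shRNA culture, a log2 ratio of −0.80. With 5-Aza-CdR it had 1073, against 1900 in the untreated control, a log2 ratio of −0.81. Gstm1 was thus lower by a similar amount in both comparisons, which share no array, and was called in neither. Gstm3 had log2 ratios of −0.77 with Dnmt1 knockdown and −0.53 with 5-Aza-CdR, and Gstm4 had −0.39 and −0.52 in that order. Not all Gstm genes went along with 5-Aza-CdR, since Gstm5 and Gstm7 had −0.12 and 0.12, and similar Gstm sequences can share signal between their probes. In the main setting no member was called in both comparisons, and with Dnmt1 knockdown only 1 was called at all. At the 1.5-fold limit Ces6, Cyp2c55 and Gstm1 were lower in both. With plain subtraction Ugt2b37 was lower in both, and with the local background subtracted Cyp4b1 was. The same overlap over all probes was not counted.

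**Figure D3:**
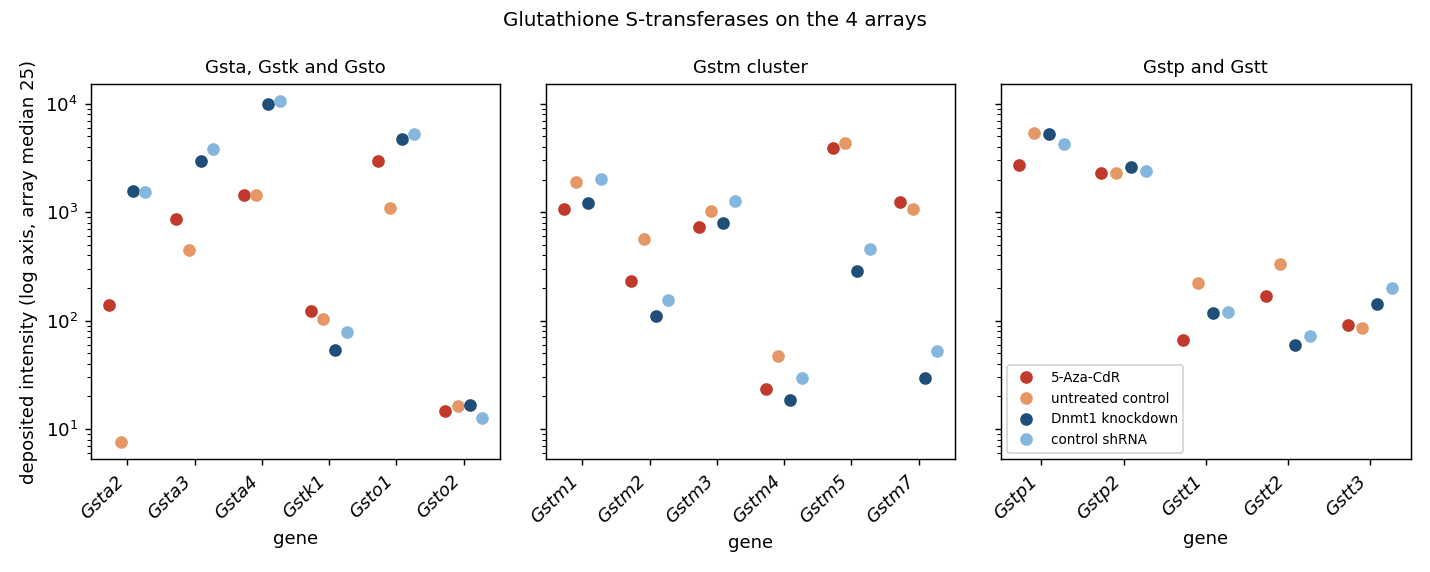
Deposited intensity (log axis, each array scaled to a median of 25) of the 17 glutathione S-transferase probes, 1 point per array, grouped by subclass. The Gsta and Gsto1 points of the Dnmt1 knockdown and control shRNA cultures lie together above those of the untreated control, and those of Gstm5 and Gstm7 lie together below it.

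More members were called higher between the 2 controls than with either treatment, as were more of all probes. Members called lower were 5 between the controls and 6 with 5-Aza-CdR. The control shRNA culture had been infected, selected with puromycin and collected at day 9, and the untreated control was collected at day 4, so vector, selection and time cannot be told apart. In control shRNA over untreated control, 17 of 81 members were higher, or 21.0%, and 3.68% of all 21173 probes were higher. Lower were 5 members, or 6.17%, and 3.52% of all probes were lower. The median of the members was 0.10, against −0.0092 for all probes. In the deposited intensities the all-probe median was shifted by −0.46. There 25 of the 81 members were higher and 19 lower, against 7.97% and 25% of all probes. The share of lower members was thus below that of all probes there. At a limit of 1.5-fold 25 of the 81 members were higher and 9 lower, against 8.96% and 8.57% of all probes. This comparison shares an array with each of the other comparisons.

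All 3 alpha-class transferases were higher in the control shRNA culture, Gsta2 with the highest log2 ratio of the members. Gsta2 had 1544 in the control shRNA culture and 7.55 in the untreated control, a log2 ratio of 5.51 that was 2.31 with the local background subtracted. Gsta3 had 3846 in the control shRNA culture and 444 in the untreated control, a log2 ratio of 3.55. Gsta4, which removes the lipid peroxidation product 4-hydroxynonenal, had 10673 in the control shRNA culture and 1450 in the untreated control, a log2 ratio of 3.34. All 3 Gsta genes were thus above the untreated control under every scaling tried. In the Dnmt1 knockdown culture the 3 genes had intensities of 1583, 2985 and 9894 in the same order, close to its own control, with log2 ratios of 0.00 (−2.37 with the local background subtracted), −0.40 and −0.04. Gsto1 had 5289 in the control shRNA culture and 1101 in the untreated control, a log2 ratio of 2.83, and Gstt3 had 199 in the control shRNA culture and 85.4 in the untreated control, a log2 ratio of 1.29.

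Within the same class, mu and theta members went the other way. Gstm7 had 52.4 in the control shRNA culture and 1072 in the untreated control, a log2 ratio of −3.18. Gstm5 had 460 in the control shRNA culture and 4332 in the untreated control, a log2 ratio of −2.51, and Gstm2 had 154 in the control shRNA culture and 569 in the untreated control, a log2 ratio of −1.25. The Gstm cluster did not move as a block, since Gstm1 and Gstm3 had log2 ratios of 0.79 and 0.94 in this comparison. Gstt2 had 72.7 in the control shRNA culture and 330.1 in the untreated control, a log2 ratio of −1.37 that was −0.86 with the local background subtracted. The median of the 17 Gst probes was 0.43 and turned to −0.36 in the deposited intensities.

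Among the cytochromes, 7 of 39 were higher in the control shRNA culture and none was lower, against 3.68% and 3.52% of all probes. This split was 9 higher and 10 lower in the deposited intensities, against 7.97% and 25% of all probes. Cyp1b1 had 1455 in the control shRNA culture and 32.4 in the untreated control, a log2 ratio of 4.82 (2.35 with the local background subtracted). Cyp3a13, an intestinal member of the drug-oxidizing Cyp3a subfamily, had 183 in the control shRNA culture and 18.7 in the untreated control, a log2 ratio of 2.25 that was 0.78 with the local background subtracted. Cyp1a1 had 503 in the control shRNA culture and 124 in the untreated control, a log2 ratio of 2.13. Cyp1a2, the other Cyp1 member, was not called, with 4.20 in the control shRNA culture and 2.62 in the untreated control, a log2 ratio of 0.10. The Cyp2b13 probe that was called with 5-Aza-CdR had 132 in the control shRNA culture and 7.41 in the untreated control, a log2 ratio of 2.18, and the other probes of that gene had 0.38 and −0.13. Cyp4f14, a fatty acid hydroxylase, had 151 in the control shRNA culture and 24.9 in the untreated control, a log2 ratio of 1.88. Cyp2s1, a cytochrome of epithelial tissues, had 81.6 in the control shRNA culture and 12 in the untreated control, a log2 ratio of 1.52. For Cyp2c55, which was lower with 5-Aza-CdR, the control shRNA culture had 166 and the untreated control 85.7, a log2 ratio of 1.07 that was 0.89 with median scaling and 0.95 in the deposited intensities. Cyp2b9 had 24.6 in the control shRNA culture and was not above background in the untreated control, at least 1.80-fold higher.

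The glucuronosyltransferases lay above the untreated control as a group in this comparison. All 7 detected genes of the Ugt2 cluster on chromosome 5 (5:86889770-87490871, GRCm38.p6) had log2 ratios above 0 under each of the 6 ways of correcting and scaling the signals, with a median of 0.60. In the main setting 10022 of all 21173 probes were above 0. Ugt2b1, Ugt2a3 and Ugt2b37, at 0.15, 0.18 and 0.44, lay within the SD of 0.45 between probes of a gene. Ugt1a6a had 519 in the control shRNA culture and 22.1 in the untreated control, a log2 ratio of 3.53 that was −0.063 with the local background subtracted. Ugt2b5 had 303 in the control shRNA culture and 70.9 in the untreated control, a log2 ratio of 2 (0.93 with the local background subtracted). Ugt2b35 had 182 in the control shRNA culture and 77.3 in the untreated control, a log2 ratio of 1.28. Similar Ugt2b sequences can share signal between their probes. Ugt8a, which transfers galactose to ceramide and not glucuronic acid to drugs, had 14.0 in the control shRNA culture and 54.9 in the untreated control, a log2 ratio of −0.69.

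Single members of the remaining classes were called between the controls. Sult1c2, a cytosolic sulfotransferase, had 128 in the control shRNA culture and 4.95 in the untreated control, a log2 ratio of 2.23 (1.06 with the local background subtracted). Sult1b1 was not above background in the untreated control and had 9.75 in the control shRNA culture, at least 1.31-fold higher. The carboxylesterases split, with Ces1 (now Ces1g) at 44.5 in the control shRNA culture and 6.73 in the untreated control, a log2 ratio of 1.09 that was 0.40 with the local background subtracted and 0.96 with median scaling. Ces6 had 412 in the control shRNA culture and 1369 in the untreated control, a log2 ratio of −1.11 that was −0.79 with the local background subtracted.

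Genes of the pathway outside the 5 classes were counted from 4 lists. With 5-Aza-CdR, none of 15 detected xenobiotic receptors and regulators, 26 oxidation and reduction partners, 24 other conjugation enzymes and 13 transporters passed the 2-fold limit in either direction. Of all probes, 0.903% were higher and 0.552% lower, so few calls or none would go with these shares. In the deposited intensities 1 receptor or regulator was higher and 1 lower, 5 oxidation and reduction partners were higher, 1 conjugation enzyme was lower and 1 transporter was higher. The shares of all probes were 5.98% higher and 2.06% lower there. With Dnmt1 knockdown, none of 13, 24, 24 and 13 passed that limit, in the same order, against 0.358% higher and 0.129% lower of all probes. There 1 oxidation and reduction partner was higher in the deposited intensities, against 6.88% higher and 0.811% lower of all probes. Between the controls, 2 of 14 receptors and regulators were higher, 7 of 25 oxidation and reduction partners were higher and 2 lower, 9 of 24 other conjugation enzymes were higher and 1 lower, and 3 of 13 transporters were higher, against 3.68% higher and 3.52% lower of all probes. These counts were, in the deposited intensities, 3 higher and 3 lower, 9 higher and 8 lower, 7 higher and 2 lower, and 6 higher, with 7.97% higher and 25% lower of all probes.

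**Figure D4:**
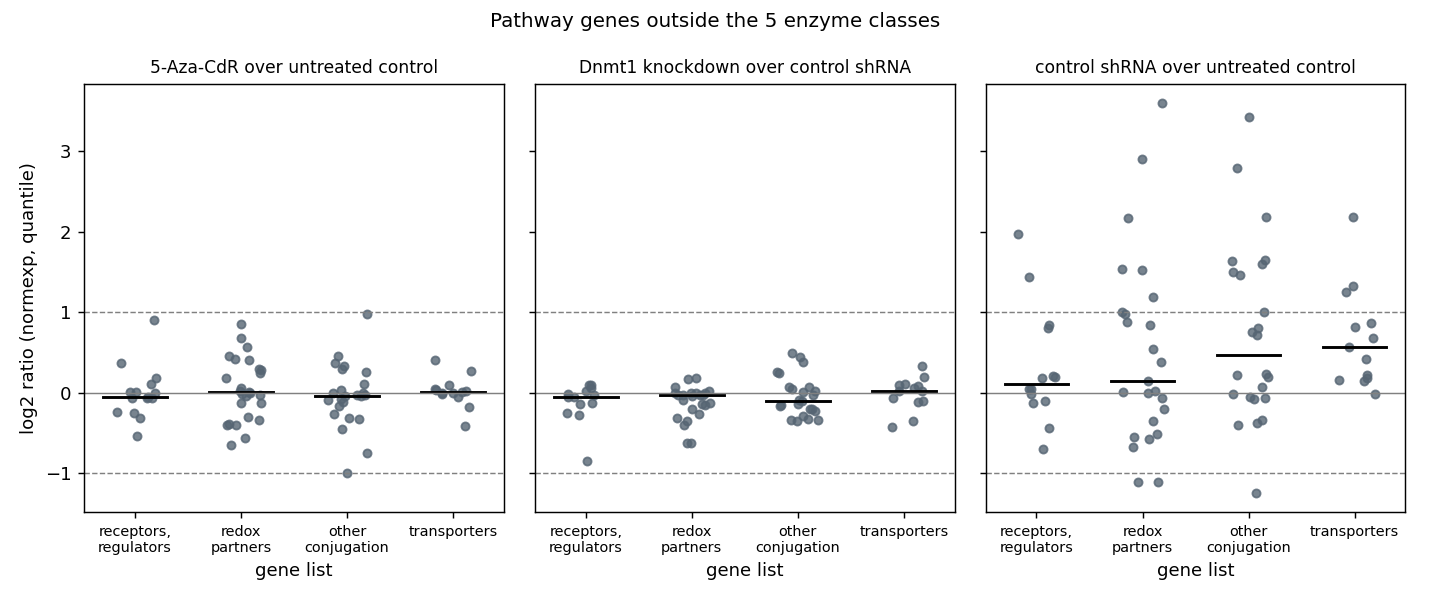
Log2 ratio of each detected gene of the 4 pathway lists (points) with the list median (bar) in each of the 3 comparisons; dashed lines mark 2-fold. No point lies past 2-fold with 5-Aza-CdR or Dnmt1 knockdown, and 21 lie above it in control shRNA over untreated control.

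Several of the genes higher in the control shRNA culture make the glutathione and the glucuronic acid that the transferases use. Gclc, the catalytic subunit of the enzyme that begins glutathione synthesis, had 1547 in the control shRNA culture and 169 in the untreated control, a log2 ratio of 3.43. Gclm, its modifier subunit, had 1371 in the control shRNA culture and 410.1 in the untreated control, a log2 ratio of 2.18. Ugdh, which makes UDP-glucuronic acid, had 3585 in the control shRNA culture and 742 in the untreated control, a log2 ratio of 2.79. Enzymes that supply both cofactors were thus brighter in the infected control. Hpgds, a glutathione-dependent prostaglandin synthase, had 79.2 in the control shRNA culture and 6.73 in the untreated control, a log2 ratio of 1.65.

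Reductases were called in both directions between the controls, and efflux pumps were called higher. Cbr3, a carbonyl reductase, had 554 in the control shRNA culture and 23.4 in the untreated control, a log2 ratio of 3.60. Nqo1, a quinone reductase and a common readout of Nfe2l2, had 257 in the control shRNA culture and 10.01 in the untreated control, a log2 ratio of 2.90. Akr1b8, an aldo-keto reductase, had 913 in the control shRNA culture and 253 in the untreated control, a log2 ratio of 2.17. Cbr1, a second carbonyl reductase, had 1576 in the control shRNA culture and 780 in the untreated control, a log2 ratio of 1.54 (1.02 in the deposited intensities). These enzymes reduce the carbonyl and quinone groups of many drugs. Lower in the same list were the reductases Cyb5r3, at −1.10, and Akr7a5, at −1.11. Nfe2l2 itself had 1168 in the control shRNA culture and 611 in the untreated control, a log2 ratio of 1.44. In the deposited intensities Nfe2l2 had 0.93 and did not pass the limit. Tiparp, a target and repressor of Ahr, had 144 in the control shRNA culture and 18.4 in the untreated control, a log2 ratio of 1.97. The pumps Abcc3, Abcb1a and Abcc2 had log2 ratios of 2.18, 1.33 and 1.26. With Dnmt1 knockdown, against the same control shRNA culture, these 13 higher genes had log2 ratios between −0.62 and 0.34.

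Markers of differentiated cells moved in the same comparisons. With 5-Aza-CdR, 2 of 7 goblet cell markers were lower, with a summed intensity of 1883 with 5-Aza-CdR and 7096 in the untreated control. Most of that sum was Tff3 (757 with 5-Aza-CdR and 3362 in the untreated control) and Spink4 (333 and 2515 in that order). A log2 ratio above 0 was found for 2 of the 7 markers. Of all probes, 0.903% were called higher and 0.552% lower in this comparison. Lower were also 1 of 5 Paneth cell markers (sums of 23081 with 5-Aza-CdR and 31832 in the untreated control) and 1 of 18 enterocyte markers. Of 11 enteroendocrine markers 1 was lower, Neurog3, at −1.27, but 7 had a log2 ratio above 0. The sums of that list were 607 with 5-Aza-CdR and 672 in the untreated control. In the deposited intensities 3 enteroendocrine markers were higher and 1 lower, against 5.98% and 2.06% of all probes. The enterocyte sum was 1555 with 5-Aza-CdR and 1251 in the untreated control, but 6 of 18 markers had a log2 ratio above 0, and Vil1 alone had 857 with 5-Aza-CdR and 482 in the untreated control. The tuft cell list had 1 of 6 markers higher, Ptgs1, at 2.11.

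With Dnmt1 knockdown, 1 marker each of the goblet (1 of 7), Paneth (1 of 5) and enteroendocrine (1 of 10) lists was higher, and none of 16 enterocyte and 6 tuft cell markers was called. The shares over all probes were 0.358% higher and 0.129% lower. The goblet sum of 3761 with Dnmt1 knockdown, against 2066 in the control shRNA culture, was mostly Tff3, with 3314 with Dnmt1 knockdown and 1535 in the control shRNA culture, and 3 of the 7 markers had a log2 ratio above 0.

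Between the controls, 4 of 5 Paneth cell markers were lower, with sums of 4162 in the control shRNA culture and 31832 in the untreated control. Among all probes 3.68% were called higher and 3.52% lower. Lower were also 2 of 7 goblet markers (2066 in the control shRNA culture and 7096 in the untreated control) and 3 of 11 enteroendocrine markers (190.4 and 672 in that order). Higher was 1 of 6 tuft cell markers, Ptgs1, at 2.27. Of 17 enterocyte markers, 2 were higher (Fabp1, at 3.53, and Fabp2, at 3.26) and 1 was lower (Anpep, at −1.15). In the deposited intensities 3 were higher and 3 lower. The sums were 2394 in the control shRNA culture and 1250.2 in the untreated control. Most of the first sum was Fabp1 (995 in the control shRNA culture and 83.7 in the untreated control) and Fabp2 (483 and 30.3 in that order). No detected endothelial marker was called in any comparison. Of 11 mesenchymal markers, 1 was higher (Acta2, at 1.09) and 1 lower (Vim, at −2.06) with 5-Aza-CdR, with sums of 717 with 5-Aza-CdR and 2632 in the untreated control, none was called with Dnmt1 knockdown, and Vim was lower between the controls, at −4.54. Col1a1, a defining marker of that list, had intensities between 3.01 and 6.93 on the 4 arrays. The share of the member differences that goes with these cell types was not tested.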

How the data were processed

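RNA of 4 organoid cultures was hybridized in a single color (Cy5) to Toray arrays with 23473 probes. The labels name an RNeasy kit for the extraction and the methods name mirVana. The deposited intensity values were made by the authors from the spot signals, with the mean of the blank spots (after trimming 5% at either end) subtracted and each array scaled to a median of 25. A recomputation found values not above that mean plus 2 SD empty, with 6 exceptions on the Dnmt1 knockdown array and 7 on the control shRNA array. The raw spot intensity was deposited for each array as well. Log2 ratios were computed from these raw signals with limma 3.58.1 (R 4.3.3), by normexp correction (offset 50, no local background) and quantile normalization of the 4 arrays together. Tables and plots were made in Python 3.11.15 (numpy 2.4.6, pandas 2.3.3, matplotlib 3.10.9). The local background rose with the spot signal (correlation of logs 0.814 to 0.959) and was subtracted in an alternative only. Spots of a probe were averaged, and 4 probes with a marked spot, none of them a member, were left out.

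Of the 23473 probes, 16631 had 1 gene symbol and 6842 had none. Of 86 member genes, 84 matched a RefSeq gene of GRCm38.p6, 5 of them under a changed symbol. Members were compared by counts past 2-fold and by medians, beside the same over all probes. With 1 array per group no model was fitted, and the number of arrays limits the precision. The steps were tested on simulated data. Alternatives were the deposited intensities, an offset of 16, plain blank subtraction, median scaling, local background, a limit of 1.5-fold, detection on both arrays and 1 probe a gene; detection by the spots without probe was chosen after the data had been seen. Named genes were members past 2-fold in any comparison, the 2 members of each class with the highest mean signal, Cyp1a1, Cyp1b1, Gstp1, Gstm1, and up to 4 genes of each pathway list past 2-fold with the largest change. The other genes were named because of their values. The members, lists and rules were chosen with earlier results of these data known. The pathway lists were xenobiotic receptors and regulators, oxidation and reduction partners, other conjugation enzymes and transporters. The marker lists given here were those of gut epithelium, enterocytes, tuft, goblet, enteroendocrine and Paneth cells, and endothelial, mesenchymal and immune cells.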

Additional observations from a re-analysis of the deposited data

How the results depend on the processing

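No paired analysis was possible because each group is 1 array and the labels carry no replicate numbers; for the same reason no array could be left out and no slide could be used as a block. With 5-Aza-CdR (4 members higher and 6 lower, 40.0% higher of those called) the counts were 7 higher in the deposited intensities, 14 lower with plain subtraction of the blank mean and 11 lower at the 1.5-fold limit. Median scaling gave 5 higher and 4 lower (55.6% higher) and the local background 2 higher and 5 lower (28.6% higher). With Dnmt1 knockdown (0 higher and 1 lower) they were 3 higher and 2 lower in the deposited intensities (60.0% higher), 2 lower with an offset of 16, 1 higher and 4 lower with plain subtraction and also with the local background (20.0% higher each), and 1 higher and 10 lower at the 1.5-fold limit. The median log2 ratio of the members with Dnmt1 knockdown, −0.02, was 0.14 in the deposited intensities. In control shRNA over untreated control (17 higher and 5 lower, 77.3% higher) they were 19 lower in the deposited intensities (56.8% higher), 29 higher and 14 lower with plain subtraction, and 9 lower at the 1.5-fold limit. Ugt1a6a turned to 0.12 with Dnmt1 knockdown and to −0.063 between the controls with the local background subtracted. Plain subtraction and the deposited intensities have no offset and a 1.5-fold limit is lower by construction; for the other differences the cause was not tested. The values of the members that the naming rule gives were followed under the 5 other ways of correcting and scaling. Of these, 263 moved by less than the spread between probes of a gene and 155 by more. A further 2, past 2-fold in the main setting, turned sign. Sign changes of values within 2-fold were not counted apart. Gsta4 with 5-Aza-CdR is 1 of these, at −0.07 and, with median scaling, at 0.30. Ratios of probes near background, most of the Cyp and Sult members, are limited by their signal.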

Other observations

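The array table gives some enzymes an older symbol that the rule does not catch. Of the analysed probes, 10 lay outside the rule although their present RefSeq symbol fits it. AU018778, now Ces1f, a carboxylesterase, had an intensity of 307 with Dnmt1 knockdown and 335 in the control shRNA culture, and was not above background with 5-Aza-CdR or in the untreated control. It was at least 11.7-fold higher in the control shRNA culture than in the untreated control, with a log2 ratio of −0.16 for Dnmt1 knockdown over control shRNA. Es22, now Ces1e, had 29.6 with Dnmt1 knockdown and 23.2 in the control shRNA culture, and 5.88 with 5-Aza-CdR and 4.81 in the untreated control. Its log2 ratio in control shRNA over untreated control was 0.66. With Ces1 these are 3 carboxylesterase probes with higher values in the control shRNA culture than in the untreated control, though Es22 did not pass the 2-fold limit. Related probes did not share this. Es1, now Ces1c, was not above background in either control, with a log2 ratio of 0.01. Ces7, which lies near Ces1 on chromosome 8, had a log2 ratio of 0.08. All of these probes were named because of their values.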
